A study of Drosophila melanogaster with 60 samples.

Results

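The genes described here are 6 genes of the neuron and its synapse, chosen by name: Syt1, Appl, Syn, nSyb, brp and elav. That choice was made with earlier results of these data known. They were found by gene name or CG number among 7648 genes measured in an overexpression experiment and 7444 genes measured in an RNAi experiment on cabut (cbt), a zinc finger transcription factor, in heads of Drosophila melanogaster. The 6 genes account for 10 of the 8669 transcripts listed for the overexpression experiment and for 9 of the 8443 listed for the RNAi experiment.

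Transmitter release at a synapse starts when calcium enters the nerve ending through channels held at the active zone. Synaptotagmin 1 (Syt1) is the calcium sensor of the vesicle, neuronal synaptobrevin (nSyb) is the vesicle SNARE protein that drives fusion, Synapsin (Syn) tethers vesicles in the reserve pool, and Bruchpilot (brp) builds the active zone scaffold. Appl is the fly amyloid precursor protein-like membrane protein of neurons. elav encodes an RNA-binding protein of neurons that regulates alternative splicing and the choice of 3′ end, and it serves as a general neuronal marker.

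In the overexpression experiment, flies carrying Tim-gal4 and UAS-cbtFLAG (labelled OE) were set against flies carrying Tim-gal4 alone (conOE). In the RNAi experiment, flies carrying Tim-gal4 and UAS-cbt RNAi (labelled RNAi) were set against flies carrying Tim-gal4 and UAS-Dcr2 (conRNAi), and the RNAi label lists no UAS-Dcr2. All groups carry the driver, which is active where timeless, a clock gene, is expressed. The samples are whole heads, and the labels do not say which of their cells express the driver. Heads were taken at Zeitgeber time (ZT, counted in hours from lights on) 3, 7, 11, 15, 19 and 23, in 2 courses for each genotype of the overexpression experiment (12 libraries a genotype) and 3 courses for each genotype of the RNAi experiment (18 libraries a genotype). The labels give neither sex nor age, and they do not say that courses came from separate flies, so p-values reflect the variation among libraries, part of which may be technical.

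Values are normalised read counts from 3′ RNA-seq, in which reads come from the poly(A) end of a transcript. Library totals recovered from the values ran from 468075 to 5512461 reads in the overexpression experiment and from 349019 to 13922765 reads in the RNAi experiment. Medians were 2308046 reads in the libraries labelled OE against 3365606.5 in conOE, and 2720848.5 in the libraries labelled RNAi against 4750668 in conRNAi. The target itself went against the overexpression label: cbt averaged 95.4 ± 25.5 in the libraries labelled OE and 285 ± 31.4 in conOE (SD, n = 12 each), a log2 difference of -1.61. In the libraries labelled RNAi cbt averaged 308 ± 55.5, against 318 ± 36.7 in conRNAi (SD, n = 18 each). The labels do not say whether transcripts of the transgene share the counted end, so the groups are named here by their labels only.

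Each gene is counted at few transcript ends. Syt1 (CG3139, chromosome arm 2L), Appl (CG7727, X) and elav (CG4262, X) each have 1 listed transcript, RA. Syn (CG3985, 3R) is listed as RC and RF with equal values, which were counted once. nSyb (CG17248, 3L) is listed as RA and RB with equal values and as RC with values of its own. The 2 tables list different transcripts of brp (CG42344, 2R), RB and RD with equal values in the overexpression table and RF in the RNAi table, so the brp levels of the 2 experiments are not measures of the same transcript. In the BDGP6 annotation, a later build than the dm3 of the files, the genes have 2 or 3 annotated 3′ ends each, and that of Syt1-RA is the first of 3, with the others 1474 and 8414 bases downstream.

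Syt1 was the member with the largest change in the overexpression experiment. Its normalised read count ran from 26.3 through a median of 72.5 to 105 in the 12 libraries labelled OE, and from 143 through a median of 185 to 208 in the 12 conOE libraries. All 12 libraries labelled OE lay below all 12 conOE libraries. The means were 72.2 ± 20.9 in the libraries labelled OE and 182 ± 24.7 in conOE (SD, n = 12 each), a log2 difference of -1.38 (SE 0.137, limma-trend with Benjamini-Hochberg adjustment, adjusted p = 7.06e-09). That difference ranked 53rd from the lowest among the 7648 genes. Counts recovered for Syt1 were 3 to 132 reads a library in the libraries labelled OE and 34 to 376 in conOE, and the value of 26.3, at ZT23 in course 2, rests on 3 reads. In heads, fewer neurons, less of this RNA in each neuron and use of another annotated 3′ end cannot be told apart.

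The Syt1 difference was present at every time of day and in every course. With no overlap between the 2 groups, lower values at 6 of 6 times and in every pairing of courses follow of necessity. The log2 differences of the time means ran from -1.54 at ZT3 to -1.19 at ZT7. Course means were 79.3 and 65.1 in the libraries labelled OE, against 176 and 187 in conOE. Over the 4 pairings of an OE with a conOE course the difference ran from -1.59 to -1.16.

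Appl and Syn fell as well. Appl ran from 345 through a median of 462 to 502 in the libraries labelled OE and from 507 through a median of 597 to 675 in conOE. The 2 groups did not overlap, although the gap between the highest library labelled OE and the lowest conOE library was narrow. The means were 438 ± 57.7 in the libraries labelled OE and 607 ± 46.4 in conOE (SD, n = 12 each), a log2 difference of -0.48 (SE 0.0707, limma adjusted p = 4.82e-06). Syn ran from 106 through a median of 145 to 169 in the libraries labelled OE and from 170.3 through a median of 199 to 259 in conOE. Again no library labelled OE reached the conOE range, but the gap, from 169.3 to 170.3, was narrower still. Syn was counted with 13 to 251 reads a library in the libraries labelled OE and 46 to 540 in conOE. Its means were 138 ± 22.97 in the libraries labelled OE and 211 ± 30.0 in conOE (SD, n = 12 each), a log2 difference of -0.62 (SE 0.0912, adjusted p = 4.81e-06). Without overlap, both genes were of necessity lower at 6 of 6 times and in all 4 pairings of courses.

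The other members did not pass in the overexpression experiment. The nSyb transcript RA, which encodes the vesicle SNARE protein, ran from 177 through a median of 245 to 349 in the libraries labelled OE and from 166 through a median of 239 to 284 in conOE. The groups overlapped over most of their range. The means were 253 ± 45.0 in the libraries labelled OE and 231 ± 38.4 in conOE (SD, n = 12 each), a log2 difference of 0.13 (95% interval -0.05 to 0.31, limma adjusted p = 0.256). brp, the scaffold gene, was counted with 1 to 12 reads a library in the libraries labelled OE and 1 to 17 in conOE, and averaged 7.14 ± 4.99 normalised counts in the libraries labelled OE and 7.38 ± 3.32 in conOE (SD, n = 12 each). Its log2 difference of -0.15 had a 95% interval of -0.73 to 0.44 (adjusted p = 0.717) and turned to 0.09 without ZT3, so neither direction was detectable at this depth. elav, with 1 to 28 reads a library in the libraries labelled OE and 3 to 20 in conOE, averaged 14.8 ± 5.68 in the libraries labelled OE and 11.95 ± 3.50 in conOE (SD, n = 12 each). Its log2 difference was 0.25 (95% interval -0.16 to 0.67, adjusted p = 0.324), with the means higher in the libraries labelled OE at 4 times and lower at 2.

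In all, 3 of the 6 members fell and 0 rose in the overexpression experiment, where 41.3% of all genes passed in either direction, 18.6% lower and 22.7% higher. nSyb is counted here at RA, its higher transcript in this experiment. nSyb-RC, described below, rose in the transcript test (log2 difference 0.37, limma adjusted p = 0.0164). The 3 that fell are also the 3 whose ranges did not overlap. Of all genes, 5.99% had ranges that did not overlap, 1.82% of all with the libraries labelled OE lower. The median log2 difference was -0.31 over the 6 members and 0.01 over all genes. The calls of Syt1, Appl and Syn held in all 20 alternative settings tried.

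The transcripts of nSyb had unlike values. nSyb-RC ran from 99.5 through a median of 155 to 269 in the libraries labelled OE and from 69.8 through a median of 121 to 167 in conOE. The ranges overlapped, with 3 libraries labelled OE above all of conOE and 3 conOE libraries below all of those labelled OE. The means were 158 ± 44.4 in the libraries labelled OE and 121 ± 26.7 in conOE (SD, n = 12 each), a log2 difference of 0.37 (SE 0.123, limma adjusted p = 0.0164 over 8391 transcripts, 41.4% of which passed). The call did not survive leaving out OE course 2 (adjusted p = 0.116), conOE course 1 (0.0793), conOE course 2 (0.0700) or ZT19 (0.0523). The ratio of RC to RA was higher in the libraries labelled OE by 0.24 on the log2 scale (SE 0.115), which did not pass over the 743 ratios tested (limma adjusted p = 0.154, with 20.3% of the ratios passing).

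**Figure D1:**
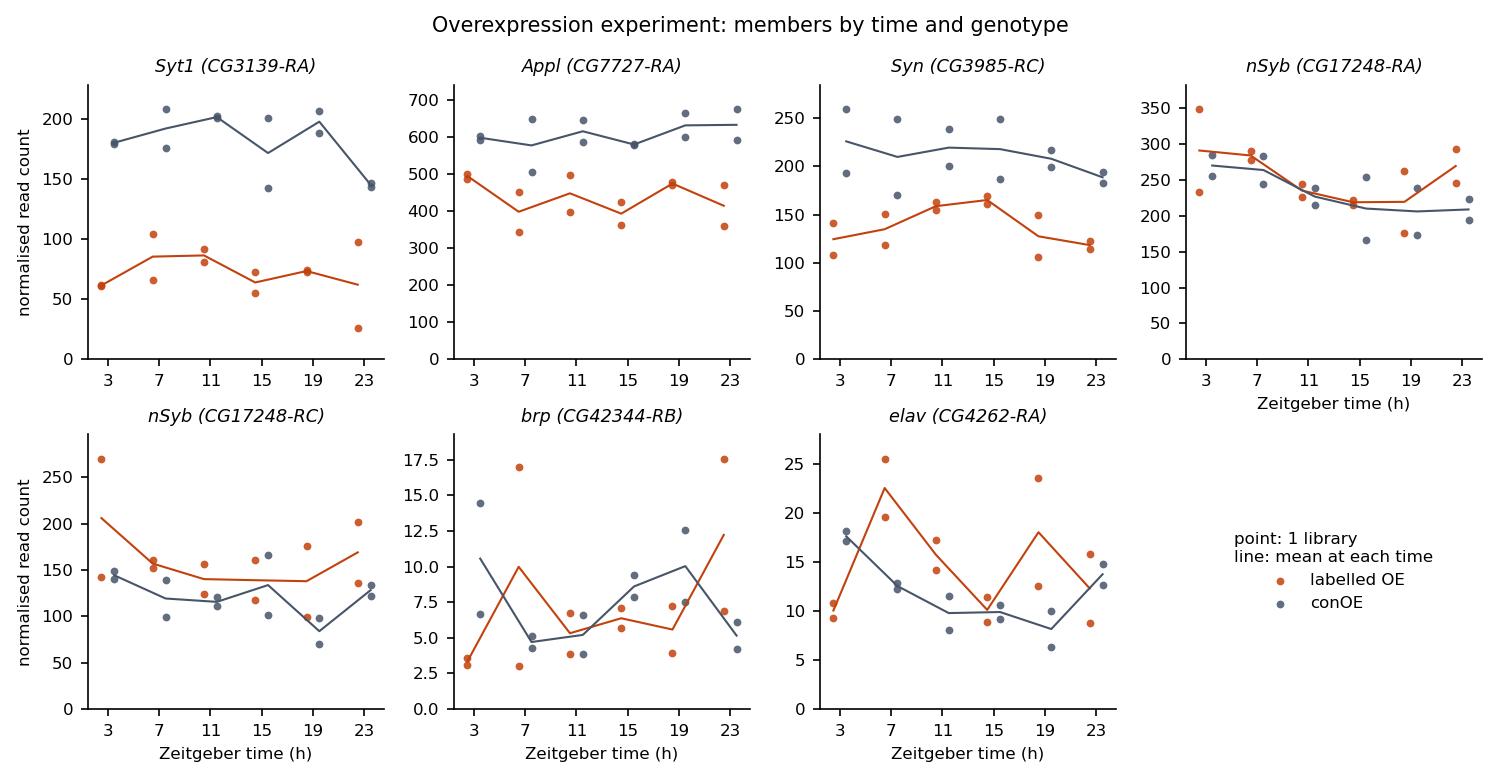
Normalised read counts of each member transcript against Zeitgeber time in the overexpression experiment, with 1 point a library, libraries labelled OE left of conOE at each time, and lines through the means. The points of the libraries labelled OE lie below those of conOE at all 6 times for Syt1, Appl and Syn. At single times they also stand clear of conOE for brp (below at 3, above at 1) and elav (below at 1, above at 3). These 2 genes keep no 1 direction over the day. The points stand clear above conOE at 1 time for nSyb-RA and at 4 times for nSyb-RC, and both have higher means at all 6. With so few libraries at each time, points can stand clear by chance, and the share of all transcripts that do so is not given.

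Syt1 fell in the RNAi experiment too. It ran from 88.2 through a median of 126 to 165 in the 18 libraries labelled RNAi and from 112 through a median of 179 to 219 in the 18 conRNAi libraries. The ranges overlapped, but 15 of the 18 conRNAi libraries lay above every library labelled RNAi. The means were 129 ± 22.4 in the libraries labelled RNAi and 178 ± 28.2 in conRNAi (SD, n = 18 each), a log2 difference of -0.46 (SE 0.0741, limma adjusted p = 5.01e-06). The mean was lower at 6 of 6 times, with differences from -0.60 at ZT11 to -0.34 at ZT19, and at 4 of them the 3 libraries labelled RNAi lay below the 3 of conRNAi. With 3 libraries a genotype at each time, groups can separate by chance, and the share of all genes that do so is not given. Course means were 128, 143 and 117 in the libraries labelled RNAi, against 161, 192 and 179 in conRNAi, and each of the 9 pairings of courses gave a lower value (-0.71 to -0.17).

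Syt1 was thus the member that fell in both experiments, as did 2.42% of the 6987 genes measured in both. Whether the 2 experiments were normalised together is not given. Each had its own fit, and the difference between -1.38 and -0.46 was not tested. The 2 experiments share no libraries, but the labels do not say whether they were prepared apart.

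Appl and Syn did not pass in the RNAi experiment. Appl, the amyloid precursor-like gene, ran from 552 through a median of 772 to 925 in the libraries labelled RNAi and from 657 through a median of 745 to 918 in conRNAi. The ranges overlapped almost wholly, and the log2 difference of -0.01 (95% interval -0.13 to 0.10, limma adjusted p = 0.900) took a positive sign in 5 of the alternatives. Syn ran from 225 through a median of 277 to 405 in the libraries labelled RNAi and from 202 through a median of 255 to 326 in conRNAi. Its means were 286 ± 50.9 in the libraries labelled RNAi and 254 ± 35.2 in conRNAi (SD, n = 18 each), a log2 difference of 0.16 (SE 0.0678, adjusted p = 0.0786). This missed the threshold. Syn passed without RNAi course 3 (adjusted p = 0.0193), without conRNAi course 2 (0.0436), without ZT11 (0.0403) and with a term for the replicate number. With 1 value per course its adjusted p was 0.364, and without RNAi course 2 it was 0.526.

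brp, elav and nSyb rose in the libraries labelled RNAi, with unequal support. brp, here read at transcript RF, ran from 13.2 through a median of 25.1 to 35.6 in the libraries labelled RNAi and from 9.20 through a median of 17.8 to 24.7 in conRNAi. Of the libraries labelled RNAi, 10 lay above the whole conRNAi range. The means were 25.4 ± 6.51 in the libraries labelled RNAi and 16.8 ± 3.92 in conRNAi (SD, n = 18 each), a log2 difference of 0.55 (SE 0.136, limma adjusted p = 0.00200), from 3 to 74 recovered reads a library. Its mean was higher at 6 of 6 times and in all 9 pairings of courses. With 1 value per course in place of 1 per library, brp missed the threshold (adjusted p = 0.0575).

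elav, the RNA-binding protein gene, ran from 4.59 through a median of 16.2 to 44.9 in the libraries labelled RNAi and from 4.03 through a median of 10.5 to 21.0 in conRNAi. The spread among the libraries labelled RNAi was wide: 5 of them lay above all of conRNAi, and the highest, at ZT23 in course 2, rests on 6 reads. The means were 18.9 ± 11.4 in the libraries labelled RNAi and 10.7 ± 4.05 in conRNAi (SD, n = 18 each), a log2 difference of 0.63 (SE 0.211, limma adjusted p = 0.0245). At ZT23 the mean was 31.1 in the libraries labelled RNAi and 7.31 in conRNAi, and at ZT11 it was 8.99 in the libraries labelled RNAi and 9.16 in conRNAi. Without ZT23 the difference was 0.37 (adjusted p = 0.205), and the call was also lost without libraries under 1000000 reads (0.0746), without RNAi course 1 (0.0868) or 2 (0.103), without conRNAi course 1 (0.142) or 3 (0.0563), without ZT3 (0.0762) or ZT7 (0.0563) and with 1 value per course (0.0703).

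nSyb was read at RC, its higher transcript in this table. It ran from 72.4 through a median of 125 to 190 in the libraries labelled RNAi and from 73.4 through a median of 99.1 to 157 in conRNAi, so the ranges nearly coincided. The means were 124 ± 29.9 in the libraries labelled RNAi and 102 ± 21.9 in conRNAi (SD, n = 18 each), a log2 difference of 0.27 (SE 0.101) just inside the threshold (limma adjusted p = 0.0491). Leaving out any single course other than conRNAi course 2, any single time other than ZT7, or taking 1 value per course lost this call, with adjusted p up to 0.298 without conRNAi course 1. nSyb-RA averaged 110 ± 16.7 in the libraries labelled RNAi and 98.0 ± 19.7 in conRNAi (SD, n = 18 each), a log2 difference of 0.17 (adjusted p = 0.158 over 8179 transcripts, 22.6% of which passed) that passed without conRNAi course 2 (0.0488). The ratio of RA to RC differed by -0.10 (SE 0.122, adjusted p = 0.666 over 735 ratios, 14.4% of which passed).

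Of the 6 members, then, 3 rose and 1 fell in the RNAi experiment, where 22.4% of all genes passed, 9.23% higher and 13.1% lower. nSyb is counted at RC here and at RA in the overexpression experiment, so the 2 tallies read different transcripts. In the transcript tests RC passed as higher in both experiments (limma adjusted p = 0.0164 and 0.0488), and RA passed in neither (0.256 and 0.158). Both RC calls were lost in some alternatives. The median log2 difference was 0.22 over the members and -0.01 over all genes. No member had ranges that did not overlap, as 0.685% of all genes had, 0.403% with the libraries labelled RNAi lower. With 1 value per course, 0 members rose and 1 fell, where 672 of all genes passed in either direction, against 1664.

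**Figure D2:**
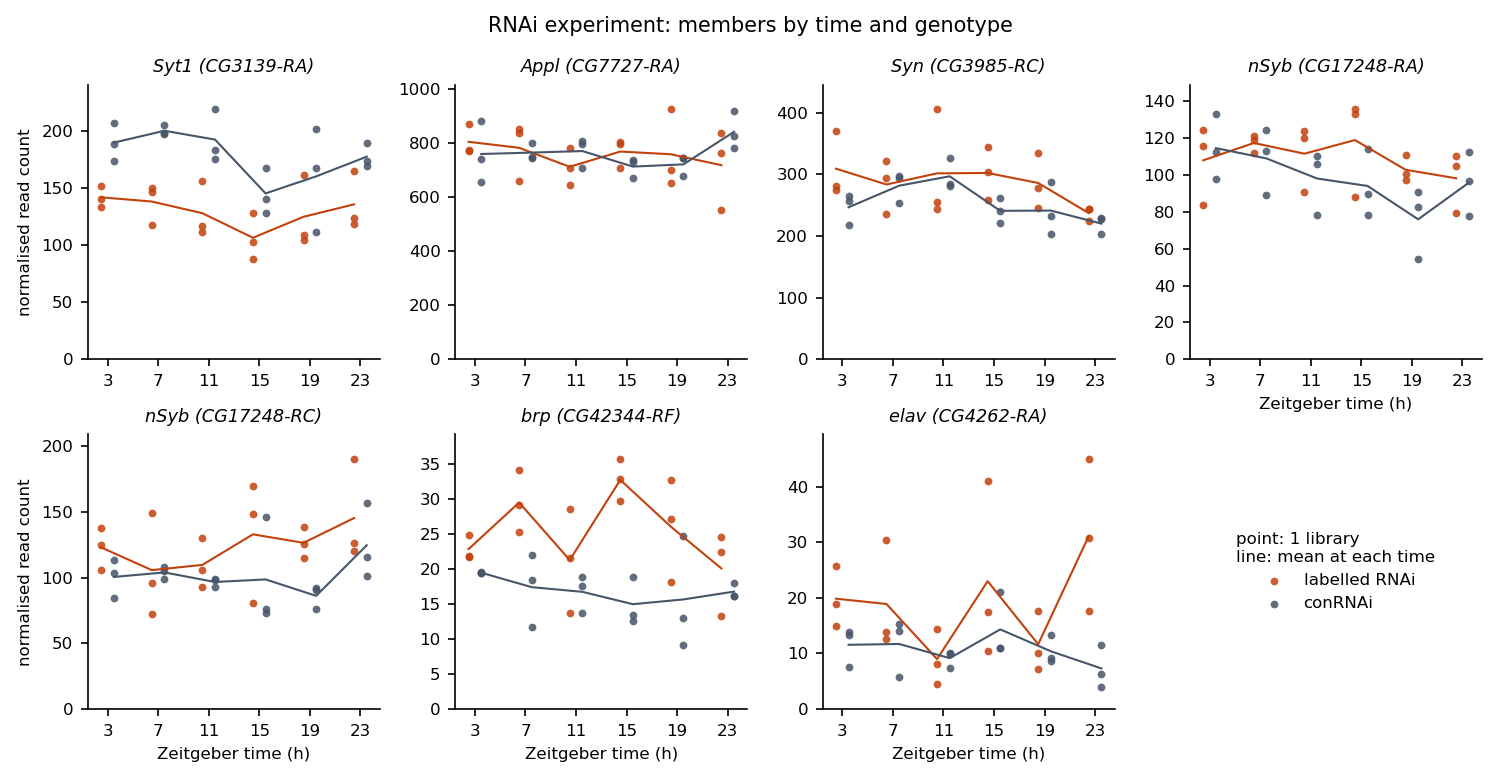
Normalised read counts of each member transcript against Zeitgeber time in the RNAi experiment, with 1 point a library, libraries labelled RNAi left of conRNAi at each time, and lines through the means. Syt1 is lower in the libraries labelled RNAi at all 6 times, brp is higher at all 6, and the elav means part most at ZT23.

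**Figure D3:**
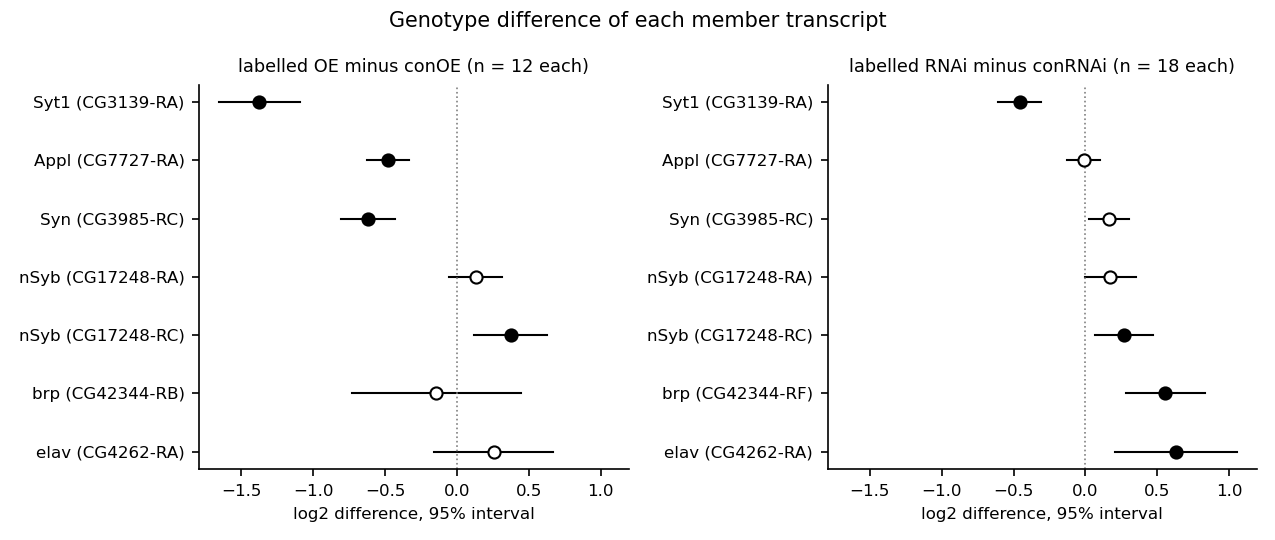
Log2 difference of each member transcript with its 95% interval, libraries labelled OE minus conOE on the left (n = 12 each) and libraries labelled RNAi minus conRNAi on the right (n = 18 each), filled where the adjusted p was under 0.05. Syt1 lies left of 0 in both experiments at -1.38 and -0.46, while Appl at -0.48 and Syn at -0.62 do so in the overexpression experiment.

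The genotype differences of the members did not depend detectably on the time of day. The genotype-by-time terms passed for 0 members and for 0 genes in either experiment (0.00% of all genes in both, limma F test with Benjamini-Hochberg adjustment). At an unadjusted p under 0.05 there were 121 genes in the overexpression experiment and 336 in the RNAi experiment, and the members' lowest unadjusted p was that of elav in both, 0.0667 and 0.0636. Without OE course 1 the terms passed for 14 genes, without conOE course 2 for 6 and without RNAi course 1 for 11, and for 0 members.

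The members showed no daily rhythm that passed. In a 24 h harmonic fitted within each genotype, 0 members passed in this fit or in any alternative, where 0.601% of genes passed in the libraries labelled OE, 1.20% in conOE, 2.18% in the libraries labelled RNAi and 4.10% in conRNAi. Those nearest the threshold were Syn in conRNAi, with an amplitude of 0.19 on the log2 scale and a fitted peak at ZT 9.43 (limma adjusted p = 0.108), and Syt1 in conRNAi, with an amplitude of 0.22 and a peak at ZT 5.57 (adjusted p = 0.158). In the authors' deposited table, whose rhythm test is not named, q was 0.00798 for Syn and 0.0122 for Syt1 in conRNAi, and 0.00622 for elav in conOE. None of these 3 genes had a q under 0.05 in another genotype of the authors' deposited table, where Syn had 0.0560 in the libraries labelled OE. Of all listed transcripts, 12.8% in conRNAi and 7.59% in conOE had a q under 0.05 in the authors' deposited table.

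Most genes of the wider neuronal and synaptic lists were lower in the overexpression experiment. The lists were chosen with earlier results of these data known, so their shares are descriptive and not independent evidence. Of 60 measured genes of 6 lists, leaving out the members, 38 fell and 2 rose (63.3% and 3.33%, where 18.6% of all genes fell and 22.7% rose), with a median log2 difference of -0.35 against 0.01 over all genes. The counts of single lists below stand against the same shares of all genes. With 1 value per course 27 fell and 0 rose, without conOE course 2 the number that fell was 25, and without libraries under 1000000 reads it was 38. Of all genes, 3155 passed in either direction in the main fit, 1986 with 1 value per course and 2204 to 2813 with 1 course left out. Their summed level ran from 13980 to 16136 normalised counts in the libraries labelled OE and from 17903 to 20032 in conOE, so the 2 groups of libraries did not overlap in this sum. The sum is weighted toward genes of high count. Hsc70-4, a chaperone gene of the fusion list, alone averaged 3639 in the libraries labelled OE and 4847 in conOE. The sum without it was not taken.

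The fusion machinery and the vesicle proteins had the largest shares of genes that fell among the 6 lists. Of 12 SNARE and fusion genes 10 fell and 0 rose (median -0.47). Complexin (cpx), the clamp and activator of the SNARE complex, averaged 638 ± 103.7 in the libraries labelled OE and 1035 ± 114.8 in conOE (SD, n = 12 each), a log2 difference of -0.71 (limma adjusted p = 3.74e-07). The NSF gene comt, whose product takes SNARE complexes apart, differed by -0.68 (adjusted p = 4.25e-07), and the priming factor gene unc-13 by -0.68 (adjusted p = 1.54e-06). These 3 genes had ranges that did not overlap. Syx1A, the SNARE partner of nSyb on the plasma membrane, averaged 152 ± 17.4 in the libraries labelled OE and 161 ± 18.3 in conOE (SD, n = 12 each), and its difference of -0.09 did not pass (adjusted p = 0.384).

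Of 7 other synaptotagmins and vesicle proteins 6 fell and 0 rose (median -0.59). Rab3, the vesicle GTPase, averaged 221 ± 26.7 in the libraries labelled OE and 331 ± 44.9 in conOE (SD, n = 12 each), a log2 difference of -0.58 (limma adjusted p = 6.19e-06) with no overlap of ranges. Syt4 differed by -0.59 (adjusted p = 6.31e-06) and Syt7 by -0.62 (adjusted p = 0.000567). Sytalpha, another synaptotagmin, had a difference of -0.34 that did not pass (SE 0.249, adjusted p = 0.286). The log2 difference of Syt1 was the lowest among the members and the 60 genes, and the next lowest was that of Gad1, the glutamate decarboxylase that makes GABA, at -0.85 (adjusted p = 0.000107), with 65.9 ± 21.9 normalised counts in the libraries labelled OE and 116 ± 25.8 in conOE (SD, n = 12 each).

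The other lists moved in the same direction with more exceptions. Of 8 active zone and calcium channel genes 4 fell and 0 rose (median -0.19). The active zone gene Rim differed by -0.71 (limma adjusted p = 4.33e-05), the vesicle kinesin gene unc-104 by -0.27 (0.00468) and the RIM-binding protein gene Rbp by -0.40 (0.0234), whereas CASK, a scaffold kinase, had -0.17 (0.0533) and did not pass. Of 14 endocytosis and recycling genes 7 fell and 1 rose (median -0.32). The dynamin gene shi differed by -0.58 (adjusted p = 1.04e-05), the endophilin gene EndoA by -0.57 (0.000129) and nwk by -0.51 (0.000210), with Amph at -0.24 not passing (0.174). The stoned genes stnA and stnB had nearly equal values, 190.3 ± 46.6 and 189.7 ± 46.3 in the libraries labelled OE, so they may count the same reads.

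Of 8 vesicular transporter and transmitter synthesis genes 6 fell and 0 rose (median -0.35). Besides Gad1, the monoamine transporter gene Vmat differed by -0.36 (limma adjusted p = 0.00200) and the GABA transporter gene VGAT by -0.42 (0.0100), and the proton pump gene Vha100-1 had -0.13 and did not pass (0.0903). Of 11 other pan-neuronal genes 5 fell and 1 rose (median -0.24). The elav relative fne differed by -0.63 (adjusted p = 1.74e-05), the potassium channel gene Sh by -0.42 (0.000295) and N-cadherin (CadN) by -0.38 (0.00200), and Rbp9, another elav relative, had -0.14 and did not pass (0.0772). The gene that rose, the adhesion molecule gene Fas2 at 0.23 (adjusted p = 0.0489), was chosen after its values were seen. So was Rab5, the early endosome GTPase, which rose by 0.20 (0.0293) among the endocytosis genes. Both rises were lost under TMM rescaling of the values, where 41 of the 60 genes fell and 0 rose. Over the 20 alternatives, 1986 to 3320 of all genes passed in either direction.

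In the RNAi experiment fewer genes of these lists passed, and most that did rose. Of 62 measured genes 12 rose and 1 fell (19.4% and 1.61%, where 9.23% of all genes rose and 13.1% fell), with a median log2 difference of 0.08 against -0.01 over all genes. The number that rose was 6 without conRNAi course 1, 18 without conRNAi course 2, 15 without libraries under 1000000 reads and 1 with 1 value per course. The number of all genes that passed in either direction moved too. It was 1664 in the main fit, 1067 to 1899 with 1 course left out and 672 with 1 value per course. The summed level of the 62 genes, Hsc70-4 among them, ran from 17934 to 21791 in the libraries labelled RNAi and from 16145 to 20174 in conRNAi, with overlap.

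Of 12 pan-neuronal genes 3 rose and 0 fell: CadN by 0.39 (limma adjusted p = 0.00204), nrv3, a sodium pump subunit gene, by 0.32 (0.000687) and fne by 0.28 (0.0379), while Sh had 0.29 and did not pass (0.0554). Of 11 SNARE and fusion genes 2 rose and 0 fell. Syx1A averaged 143 ± 26.7 in the libraries labelled RNAi and 110 ± 23.1 in conRNAi (SD, n = 18 each), a log2 difference of 0.38 (adjusted p = 0.00210), and the synapse-associated gene Sap47 differed by 0.29 (0.00478), with Rop at 0.15 not passing (0.0622). Of 9 active zone genes 1 rose, CASK by 0.34 (adjusted p = 4.43e-05), and 0 fell, with Rim at 0.18 not passing (0.0672). Of 8 other synaptotagmins and vesicle proteins 2 rose, Rab3 by 0.24 (0.0179) and Syt7 by 0.22 (0.0200), and the Rab3 effector gene Rph fell by 0.40 on the log2 scale (0.0492). The call of Rph was lost under TMM rescaling.

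Of 14 endocytosis genes 4 rose and 0 fell, among them Rab5 by 0.27 (limma adjusted p = 4.01e-05), AP-2sigma, a clathrin adaptor subunit gene, by 0.22 (0.00504) and shi by 0.22 (0.00663), with Amph at 0.19 not passing (0.0706). Of 8 vesicular transporter and transmitter synthesis genes 0 passed in either direction at the adjusted threshold, and the one nearest to it was the acetylcholine transporter gene VAChT at 0.19 (0.0873). cpx, comt and unc-13, which fell in the libraries labelled OE, had -0.03, -0.05 and 0.05 in the RNAi experiment.

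**Figure D4:**
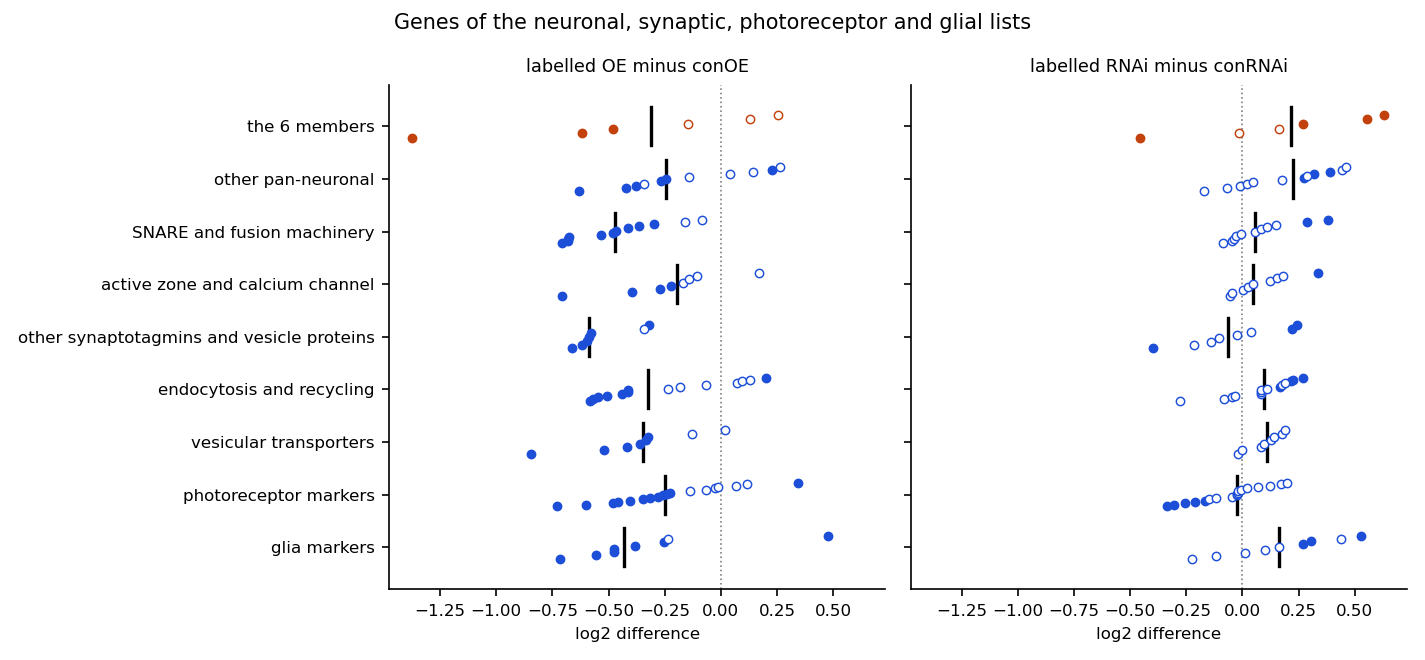
Log2 difference of the members and of each measured gene of 8 lists, libraries labelled OE minus conOE on the left and libraries labelled RNAi minus conRNAi on the right, with 1 point a gene, filled where the adjusted p was under 0.05, and a bar at the median of each list. In the overexpression experiment the medians of the 6 neuronal and synaptic lists lie between -0.59 and -0.19, and in the RNAi experiment between -0.06 and 0.23.

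Markers of photoreceptors, glia and other tissues of the head moved beside these genes. The part of these cells in the results was not tested, and photoreceptors are themselves neurons. In the overexpression experiment, where 18.6% of all genes fell and 22.7% rose, 11 of 18 photoreceptor markers fell and 1 rose, with a summed level from 73438 to 92722 normalised counts in the libraries labelled OE and from 86842 to 104811 in conOE. Of 8 glia markers 6 fell and 1 rose, with sums from 3736 to 4836 in the libraries labelled OE and from 4514 to 6358 in conOE. Of 12 muscle markers 3 rose and 2 fell, of 10 head fat body markers 6 rose and 1 fell, of 4 cuticle markers 1 rose and 2 fell, and of 13 mitochondrially encoded transcripts 9 fell and 0 rose. All 8 antimicrobial peptide genes rose, with sums from 17129 to 48145 in the libraries labelled OE and from 1101 to 6208 in conOE. Every marker counted here had reads in all libraries, since the tables list such transcripts only.

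In the RNAi experiment, where 13.1% of all genes fell and 9.23% rose, 5 of 18 photoreceptor markers fell and 0 rose, and their sum ran from 75685 to 103643 in the libraries labelled RNAi and from 83598 to 110736 in conRNAi. Of 9 glia markers 3 rose and 0 fell, with sums from 4748 to 6142 in the libraries labelled RNAi and from 4151 to 5669 in conRNAi. Of 12 muscle markers 1 rose and 0 fell, of 10 head fat body markers 1 rose and 6 fell, of 4 cuticle markers 4 fell, of 7 antimicrobial peptide genes 0 rose and 1 fell, and of 13 mitochondrially encoded transcripts 4 rose and 0 fell. Beside these, 12 genes of the 6 neuronal and synaptic lists rose and 1 fell, of 62. These lists are not neuronal markers only: they hold genes of general membrane traffic, and Rab5 and AP-2sigma are among those that rose.

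The members did not vary as 1 group across libraries. Over the 24 libraries of the overexpression experiment, Pearson's r of the log2 values was 0.83 between Appl and Syt1, 0.76 between Syn and Syt1 and 0.65 between Appl and Syn, whereas nSyb had -0.15 with Syt1 and -0.46 with Syn. Over the 36 libraries of the RNAi experiment the same pairs had 0.35, -0.10 and 0.20, and nSyb had -0.07 with Syt1 and -0.09 with Syn. These values include the difference between genotypes, and the libraries share their depth and normalisation. nSyb is read at RA in the overexpression table and at RC in the RNAi table, and brp at RB and RF, so for these 2 genes the values of the experiments come from different transcripts.

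By the mean of r over the 2 experiments (24 and 36 libraries, 6986 other genes), which for nSyb and brp joins different transcripts, the 3 genes most like Syt1 were CG1648 (0.78), Sam-S (0.75) and CG9674 (0.75). Those most like Appl were CG18304 (0.79), CG14401 (0.73) and cpx (0.72), and those most like Syn were p120ctn (0.72), Gad1 (0.70) and CG2269 (0.70). For nSyb they were shep (0.62), dpy (0.57) and CASK (0.55). The likeness was lower for the members with few reads: CG9399, alpha-Est10 and alpha-Man-Ic had 0.53, 0.53 and 0.51 with brp, and mIF3, HnRNP-K and CG15011 had 0.54, 0.53 and 0.49 with elav.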

How the data were processed

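The 60 libraries were grouped by the genotype, time and replicate number of their labels. Bowtie, TopHat and the build dm3 were used, per the submitters' processing notes. How reads were counted, normalised and filtered, with which annotation and versions, is not given in the sources used here. The deposited signal is, per the file headers, 1 value for each transcript in each library. Judged by its steps it is reads over a library size factor: in 59 of 60 libraries the low values were all whole reads within 0.05 reads. In 35 libraries the lowest listed value was more than 1 read by this estimate, so the size of 1 read there rests on the spacing of the values alone, and read counts of single genes and library totals are estimates. Each listed transcript had at least 1 read in every library of its table. The authors also deposited q-values of a rhythm test that the headers do not name, which were copied as they stand. Symbols came from a RefSeq gene table through CG numbers (7378 and 7186 genes by locus tag, 218 and 207 by synonym, 52 and 51 by listed name).

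The transcript of highest mean was kept for each gene, and transcripts of a gene with equal values were counted once. For each experiment, limma-trend (limma 3.58.1, R 4.3.3) was fitted to log2(value + 1) with terms for genotype and time, with a threshold of 0.05 on p-values adjusted by Benjamini-Hochberg over all genes. These differences understate the change of low genes. Every gene passed the filter of a mean value of 1 or more. Genotype-by-time terms, a 24 h harmonic within each genotype, each transcript and the ratios of transcripts of a gene were fitted by limma likewise, the ratios without a trend. A list is given by its counts and its median beside those of all genes. Separate values of overlapping genes and near-identical copies are uncertain. The fit was tested on simulated data.

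Named genes were the members and their transcripts, up to 3 passing genes of lowest p and the nearest one that did not pass per list and experiment, the 3 genes of highest correlation per member, and cbt. The members and lists were chosen with earlier results of these data known. Alternatives covered pseudocounts of 0.5 and 10, no filter and a mean of at least 20, median-ratio and TMM rescaling, each course or time left out, a replicate block, 1 value per course, summed transcripts and the removal of libraries under 1000000 reads. The counts over gene lists under these alternatives were added after the data were seen.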

Additional observations from a re-analysis of the deposited data

How the results depend on the processing

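The genotype calls of Syt1, Appl and Syn in the overexpression experiment and of Syt1 in the RNAi experiment held under every alternative run. The edgeR alternative, planned for counts, was not run: the tables hold normalised values, and in 35 of 60 libraries the lowest value is more than 1 estimated read, so the low values there are not whole multiples of the lowest one and the recovered reads were not used as counts. A mean of at least 20 leaves out brp and elav of the overexpression table and elav of the RNAi table. With 1 value per course the genes that passed numbered 1986 in the overexpression experiment and 672 in the RNAi experiment, against 3155 and 1664. Among neuronal and synaptic genes 1 rose in the RNAi experiment with 1 value per course, against 12. Transcript ratios that passed in the overexpression experiment numbered 99 without ZT11, against 151. The cause was not tested.

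Leaving out 1 course at a time, the genes that passed numbered 2204 to 2813 in the overexpression and 1067 (without conRNAi course 1) to 1899 in the RNAi experiment. Transcripts numbered 2417 to 3087 and 1170 to 2096, transcript ratios 54 to 148 and 40 to 128, and genotype-by-time terms 0 to 14 and 0 to 11. Rhythmic genes numbered 109 to 117 in the libraries labelled OE, 7 to 13 in conOE, 62 to 108 in the libraries labelled RNAi and 135 to 287 in conRNAi, against 46, 92, 162 and 305. Neuronal and synaptic genes that fell in the overexpression experiment numbered 25 to 36, and those that rose in the RNAi experiment 6 to 18.

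Signs of differences that did not pass turned in some alternatives. brp in the overexpression experiment became 0.0912 without ZT3. In the RNAi experiment Appl ran from -0.0617 to 0.0790 with 1 course left out at a time, with a positive sign without RNAi course 3 or conRNAi course 1, and became 0.0064 without ZT11, 0.0330 without ZT23 and 0.0244 without libraries under 1000000 reads. cbt ran from -0.0999 to 0.0102 with 1 course left out, the positive value without RNAi course 3, and became 0.0148 without ZT23.

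The replicate numbers did not meet the criterion for pairing, a correlation of deviations over 0.1 in every pair. In the overexpression experiment, where 2 courses give 1 distinct correlation a time, the 6 values ran from -0.263 to 0.195, with 3 above 0 and 2 over 0.1. In the RNAi experiment the 18 values ran from -0.0786 to 0.212, with 16 above 0 and 6 over 0.1. Depth was partly shared by replicate number and time. The library of fewest reads was course 2 at ZT23 in each genotype: 468075 (OE), 674737 (conOE), 349019 (RNAi) and 703913 (conRNAi). The library of most reads was not the same in each. Whether libraries of 1 number were handled together was not tested. With the replicate block, 3158 and 1821 genes passed the genotype test and 71 were rhythmic in the libraries labelled OE, and Syn passed in the RNAi experiment (0.16, adjusted p = 0.0421), against an adjusted p of 0.364 with 1 value per course.

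brp and elav had as few as 1 estimated read in a library.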
